A study of Mus musculus with 11 samples.

Results

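The genes described here are 9 genes of cholesterol efflux, lipoprotein assembly and cellular cholesterol handling: Abca1, Abcg1, Apoe, Apoc1, Scarb1, Pltp, Npc1, Npc2 and Soat1. They were chosen by symbol, and all 9 were among the 12787 genes listed in RNA sequencing of gonadal white adipose tissue (WAT). The tissue came from 11 male C57Bl6/J (C57BL/6J) mice, each of which gave 1 library. In the HFD group (n = 5) the mice received a 60% high-fat diet for 20 weeks, and in the HFD + IMC group (n = 6) the same diet contained 0.06% w/w iodomethylcholine. Iodomethylcholine (IMC) is a small molecule that blocks the choline trimethylamine lyase of gut microbes, the enzyme that releases trimethylamine from dietary choline. Both groups were on the HFD, so no lean tissue entered these comparisons, and neither group carried an engineered allele. The labels give no age and no batch, and 1 further HFD library was removed by the submitters for its quality.

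Cells cannot break down the sterol ring of cholesterol, so they store it as esters or export it to lipoproteins. Cholesterol taken up with lipoproteins is freed in lysosomes, where NPC2 and NPC1 hand it on to the rest of the cell, and SOAT1 esterifies it at the endoplasmic reticulum for storage in droplets. ABCA1 and ABCG1 load cholesterol and phospholipid on to apolipoprotein A-I and on to HDL, SR-BI (the product of Scarb1) exchanges cholesterol with HDL, and PLTP moves phospholipids between lipoprotein particles. Abca1, Abcg1, Apoe, Apoc1 and Pltp are textbook targets of the liver X receptors (LXR), which sense oxysterols and bind DNA with a retinoid X receptor. In fat, both adipocytes and macrophages use these genes, and macrophages of obese fat take up lipid from dying adipocytes.

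The LXR element of Abca1 is a direct repeat of a short site spaced by 4 bases (direct repeat 4). The promoters are shown because Abca1, Apoe and Pltp share LXR as a textbook regulator and did not move in the same direction. The rise of Abca1 was small and its call was near the threshold, as given below. Whether the element bears on these differences was not tested. A RefSeq promoter table of GRCm38.p6, the same assembly as mm10, held a window for 5 of the 9 genes, namely Abca1, Apoe, Pltp, Npc2 and Soat1. The sequences are the 250 bases before the annotated start, written 5′ to 3′ on the strand of the gene. They lie at chr4:53159896-53160145 (Abca1, minus strand), chr7:19699189-19699438 (Apoe, minus strand, the first of 3 annotated starts) and chr2:164857709-164857958 (Pltp, minus strand). The starts are those of single transcripts, so the Apoe window lies inside the extent of the whole gene given below and the Abca1 window partly so. Capitals mark any match, on either strand, to the direct repeat 4, the E-box, the GC box or the TATA box.
Abca1: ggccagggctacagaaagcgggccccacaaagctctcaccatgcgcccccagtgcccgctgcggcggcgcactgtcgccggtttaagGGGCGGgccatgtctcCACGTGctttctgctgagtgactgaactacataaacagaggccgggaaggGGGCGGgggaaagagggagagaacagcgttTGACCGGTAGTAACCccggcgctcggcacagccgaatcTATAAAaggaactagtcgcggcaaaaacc
Apoe: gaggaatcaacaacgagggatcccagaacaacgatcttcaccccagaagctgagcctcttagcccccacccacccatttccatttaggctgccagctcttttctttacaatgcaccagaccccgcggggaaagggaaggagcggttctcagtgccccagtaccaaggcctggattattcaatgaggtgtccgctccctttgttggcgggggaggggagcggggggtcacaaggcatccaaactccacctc
Pltp: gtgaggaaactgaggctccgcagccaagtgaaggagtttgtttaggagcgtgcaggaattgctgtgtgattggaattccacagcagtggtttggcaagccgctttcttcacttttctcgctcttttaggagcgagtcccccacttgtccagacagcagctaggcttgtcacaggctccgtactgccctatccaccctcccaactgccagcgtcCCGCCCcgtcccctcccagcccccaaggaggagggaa
The Abca1 window held a match to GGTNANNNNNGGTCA between 67 and 53 bases before the start, printed as its reverse complement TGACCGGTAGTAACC. This form, with 1 free letter in the first GGTCA, was chosen after the Abca1 promoter had been read. It was found in 58 of 32851 promoter windows of the same length (0.177%). With GGTCA fixed in both repeats (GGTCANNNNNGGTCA) the repeat was found in 21 windows (0.0639%) and in none of these. Only these letters of each site were searched. The first letter of each was left free, so the gap is printed with 1 N more than the spacing of 4. The Abca1 window also held an E-box (CACGTG, 6.02% of windows), 2 GC boxes (GGGCGG, 32.7%) and a TATA box (TATAAA, 12.4%), with no overlap between the matches. Pltp had 1 GC box, and the first Apoe window had no match to these letters. The second Apoe window, not printed, held 2 overlapping TATA box matches between 100 and 91 bases before its start, and the third had none. A match describes the sequence, and a missing match says no more than that the letters are not in this window.

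Depth was even between the mice. The reads on listed genes, recovered from the steps between the deposited values, ranged from 22320022 to 25155366 per library, and 1 read was worth 0.0403 to 0.0450 CPM, which is reads set against a library size scaled to be comparable between mice. Levels are given as log2 CPM, scaled by the authors on the upper quartile of each library, and differences are HFD + IMC minus HFD on that log2 scale. By limma with Benjamini-Hochberg adjustment over all 12787 genes, 5236 genes (40.9%) passed an adjusted p of 0.05, of which 2556 (20% of all) were higher and 2680 (21.0%) lower in the IMC-treated mice. As a check of the tissue label, all 10 adipocyte markers were listed. None of 8 markers of epididymis and testis and none of 8 of T and B lymphocytes were listed, which does not show that such cells were absent. In a bulk library, fewer cells of a type and less RNA per cell cannot be told apart.

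Most of these genes passed the test between the groups, and not in one direction. Apoc1 and Abca1 were higher, Apoe, Abcg1, Pltp, Npc1 and Soat1 were lower, and Scarb1 and Npc2 did not pass the test. The 7 called genes are 77.8% of the 9, against 40.9% of all listed genes. Of these 7, Abca1 (limma adjusted p = 0.0491) and Npc1 (limma adjusted p = 0.0478) were near the threshold. Their calls held in 2 and 3 of 11 fits that left out 1 mouse. Only Apoe, Apoc1, Abcg1 and Soat1 kept their call under all 19 alternatives. The 5 lower genes are 55.6% of the 9, against 21.0% of all, and the 2 higher genes 22.2%, against 20%. The median difference over the 9 genes was -0.25, against -0.03 over all listed genes. Only for Apoe, Apoc1 and Soat1 among the 9 did the groups not overlap, and groups failed to overlap for 2951 of all genes (23.1%).

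**Figure D1:**
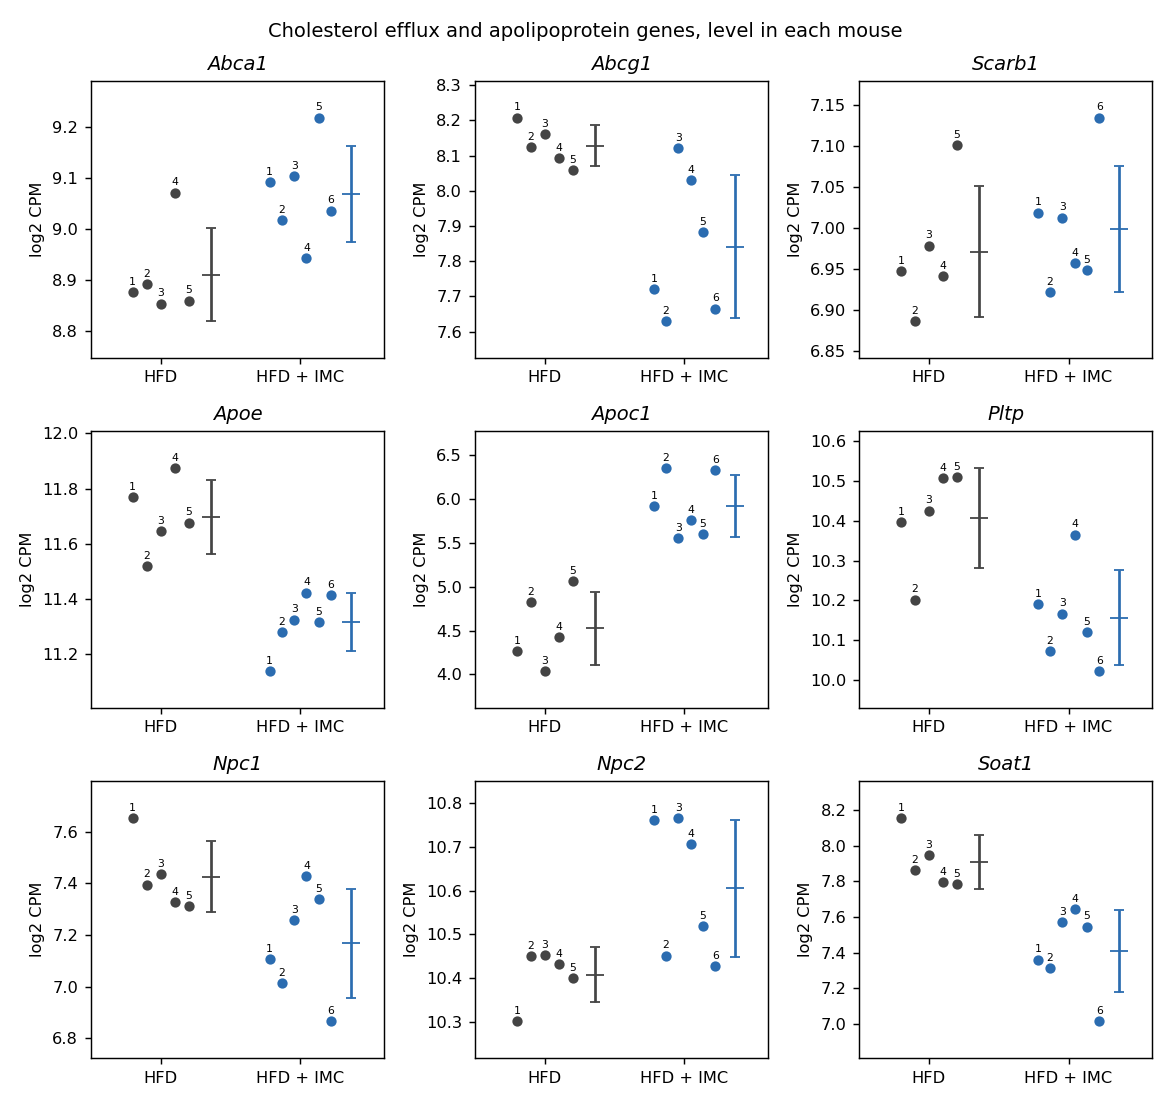
Level of each of the 9 genes in log2 CPM (vertical axis, a scale per gene) in every mouse, with the HFD mice (n = 5) and the HFD + IMC mice (n = 6) side by side, and bars for the mean and SD. The groups are fully apart for Apoc1, which is higher in the IMC-treated mice, and for Apoe and Soat1, which are lower.

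Of the exporters, Abcg1 fell and Abca1 rose by a smaller amount. Abcg1, which exports sterol to HDL (chr17:31057694-31117984, plus strand), was at 8.21, 8.12, 8.16, 8.09 and 8.06 log2 CPM in HFD mice 1 to 5. In the IMC-treated mice it ranged from 7.63 to 8.12 with a median of 7.80. The HFD mice were close together, and 5 of 6 IMC-treated mice lay below all of them. The mean went from 8.13 ± 0.06 (SD, n = 5) to 7.84 ± 0.20 (SD, n = 6), a difference of -0.29 (SE 0.08, 95% interval -0.47 to -0.10, limma adjusted p = 0.0163).

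Abca1, the transporter that loads lipid-poor apolipoprotein A-I (chr4:53030789-53159988, minus strand), was at 8.88, 8.89, 8.85, 9.07 and 8.86 log2 CPM in the HFD mice. Its range in the IMC-treated mice was 8.94 to 9.22 with a median of 9.06. HFD mouse 4 stood apart from the other HFD mice and inside the range of the treated group, and 3 of 6 IMC-treated mice lay above all HFD mice. The difference was 0.16 (SE 0.06, interval 0.03 to 0.29), a level 1.12 times that of the HFD mice. Its limma adjusted p of 0.0491 was just inside the threshold, and the exact permutation test of this gene alone gave p = 0.0238. The call was lost when any mouse other than HFD mouse 4 or IMC mouse 4 was left out (adjusted p up to 0.111), and without HFD mouse 4 the difference was 0.20 (adjusted p = 0.0185).

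Scarb1, which encodes the HDL receptor SR-BI (chr5:125277087-125341094, minus strand), was the steadiest of the 9 between groups. Its levels were 6.95, 6.89, 6.98, 6.94 and 7.10 log2 CPM in the HFD mice and 6.92 to 7.13, with a median of 6.98, in the IMC-treated mice. The difference of 0.03 had a 95% interval of -0.08 to 0.14 (limma adjusted p = 0.685), and with total-read scaling it was -0.0040. Its SD between mice of the same group, 0.0781, was smaller than that of most genes, since 16.7% of genes had a smaller SD.

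The apolipoprotein genes Apoe and Apoc1 moved in opposite directions although they are neighbours, 3584 bases apart on the minus strand of chromosome 7. Apoc1 encodes a small apolipoprotein of VLDL and HDL (chr7:19689480-19692659). It was at 4.26, 4.83, 4.04, 4.43 and 5.07 log2 CPM in the HFD mice, and between 5.56 and 6.36 with a median of 5.84 in the IMC-treated mice. All 6 treated mice lay above all 5 HFD mice. The mean rose from 4.52 ± 0.42 (SD, n = 5) to 5.92 ± 0.35 (SD, n = 6), a difference of 1.40 (SE 0.19, interval 0.98 to 1.81), which is 2.63-fold (limma adjusted p = 0.000170). It was the largest difference of the 9 in size, and ranked 23 in size among all listed genes. Apoc1 was also the most variable and had the fewest reads of the 9, 391 to 1948 per library. Its pooled SD of 0.382 exceeded that of 93.5% of genes.

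Apoe, a ligand of lipoprotein receptors made by liver, macrophages and adipocytes (chr7:19696244-19701310), had the most reads of the 9, 51661 to 89537 per library. HFD mice 1 to 5 were at 11.77, 11.52, 11.65, 11.88 and 11.68 log2 CPM, and the IMC-treated mice lay between 11.14 and 11.42 with a median of 11.32. The highest treated mouse was below the lowest HFD mouse. The mean fell from 11.70 ± 0.13 (SD, n = 5) to 11.32 ± 0.10 (SD, n = 6), a difference of -0.38 (SE 0.09, interval -0.57 to -0.19), and the level fell by 23.2% (limma adjusted p = 0.00407). For both apolipoprotein genes the exact permutation test gave p = 0.00216, the smallest that all splits of the 11 mice allow.

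Pltp, the phospholipid transfer protein gene (chr2:164839518-164857708, minus strand), was lower by a smaller amount. Its levels were 10.40, 10.20, 10.43, 10.51 and 10.51 log2 CPM in the HFD mice and 10.02 to 10.37, with a median of 10.14, in the IMC-treated mice. HFD mouse 2 and IMC mouse 4 made the groups overlap, and 5 of 6 treated mice were below all HFD mice. The difference was -0.25 (SE 0.08, interval -0.42 to -0.08, limma adjusted p = 0.0203), and it no longer passed without HFD mouse 4 (adjusted p = 0.0518). Pltp overlaps Ctsa, which encodes the lysosomal protective protein cathepsin A and fell by 0.54 (SE 0.08, adjusted p = 0.000327). The strand setting of the read count is not named in the sources used here, so reads of the pair could have been shared.

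Of the lysosomal exporters, Npc1 fell while Npc2 was higher on average without passing the test. Npc1, the membrane protein of the pair, was at 7.65, 7.40, 7.44, 7.33 and 7.31 log2 CPM in the HFD mice and between 6.87 and 7.43, with a median of 7.18, in the IMC-treated mice. The difference was -0.26 (SE 0.10, interval -0.46 to -0.05), with 4 of 6 treated mice below all HFD mice. Its limma adjusted p of 0.0478 was near the threshold, and the exact permutation test of this gene alone, without adjustment, gave p = 0.0519. The call held in 3 of 11 fits that left out 1 mouse, those without HFD mouse 5, IMC mouse 4 or IMC mouse 5, and the adjusted p reached 0.126 without HFD mouse 1. Npc1 overlaps a gene listed as 3110002H16Rik (Rmc1), which rose by 0.19 (SE 0.05, adjusted p = 0.00863), so here too reads could have been shared.

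Npc2, the soluble partner that binds cholesterol in the lysosome (chr12:84754559-84773112, minus strand), was at 10.30, 10.45, 10.45, 10.43 and 10.40 log2 CPM in the HFD mice. The IMC-treated mice ranged from 10.43 to 10.77 with a median of 10.61, and 4 of 6 lay above all HFD mice. The difference of 0.20 (SE 0.08, interval 0.02 to 0.37) had a limma adjusted p of 0.0645 and, for this gene alone without adjustment, an exact permutation p of 0.0411. It passed the threshold without IMC mouse 2 (adjusted p = 0.0473) or IMC mouse 6 (adjusted p = 0.0352).

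Soat1, the sterol O-acyltransferase that makes cholesterol esters (chr1:156428108-156474328, minus strand), had the largest fall of the 9. The HFD mice were at 8.16, 7.86, 7.95, 7.79 and 7.78 log2 CPM, and the IMC-treated mice at 7.01 to 7.64 with a median of 7.45, so that the groups did not overlap. The mean went from 7.91 ± 0.15 (SD, n = 5) to 7.41 ± 0.23 (SD, n = 6). The difference was -0.50 (SE 0.11, interval -0.73 to -0.27), the level fell by 29.3%, the limma adjusted p was 0.00231 and the exact permutation p was 0.00433.

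**Figure D2:**
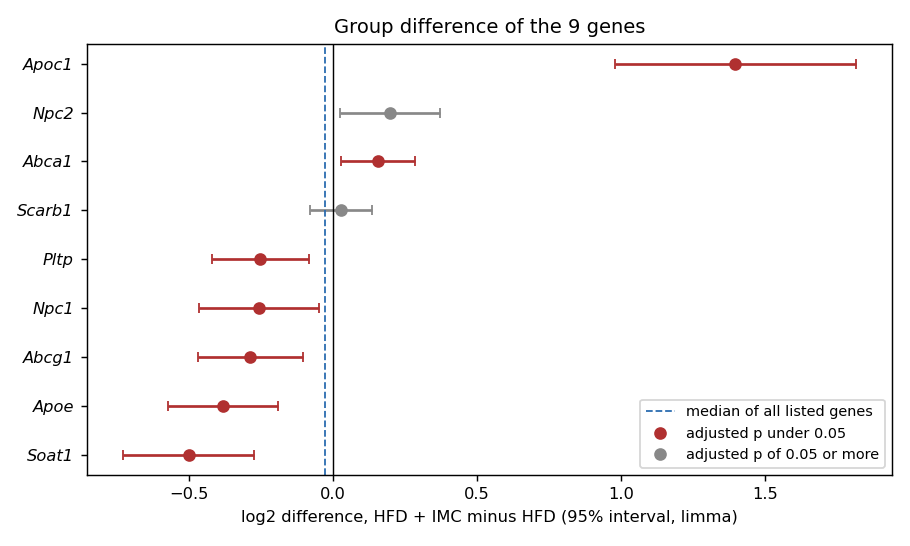
Difference in log2 CPM, HFD + IMC minus HFD (horizontal axis), for the 9 genes, with the 95% interval of limma over 11 mice. Apoc1 lies far to the right at 1.40, Soat1 farthest to the left at -0.50, and the interval of Scarb1 spans 0.

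Because a ratio within a mouse does not depend on the scaling of its library, 3 pairs of partner genes were compared this way, with exact permutation tests adjusted over the 3 pairs. The log2 ratio of Apoc1 to Apoe rose from -7.17 ± 0.48 (SD, n = 5) to -5.40 ± 0.36 (SD, n = 6), a difference of 1.78 (exact p = 0.00216, adjusted 0.00649), and was higher in all 6 treated mice than in any HFD mouse. Between the exporters, the ratio of Abca1 to Abcg1 rose from 0.78 ± 0.12 to 1.23 ± 0.22, a difference of 0.44 (exact p = 0.0108, adjusted 0.0108), with 5 of 6 treated mice above all HFD mice. The lysosomal pair showed a fall in the ratio of Npc1 to Npc2, from -2.98 ± 0.19 to -3.44 ± 0.18 (exact p = 0.00433, adjusted 0.00649), and all 6 treated mice lay below all HFD mice. The levels of these genes were known when the pairs were formed, and each pair joins a gene with a positive difference to one with a negative difference. The ratios therefore restate those differences without the scaling and are no separate support for the single genes.

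**Figure D3:**
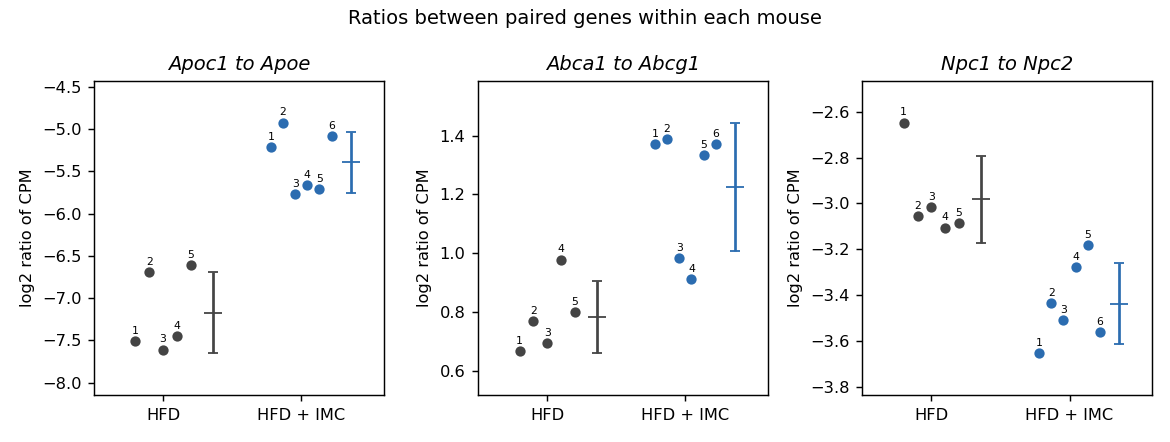
Log2 ratio of Apoc1 to Apoe, Abca1 to Abcg1 and Npc1 to Npc2 within each mouse (vertical axis, 1 panel per pair), for HFD (n = 5) and HFD + IMC (n = 6) mice, with mean and SD. The groups are apart for the first and the last pair and overlap by 1 treated mouse for the exporters.

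Levels can be compared between genes only per length, and for this the CPM were divided by the exonic length of each gene in kilobases. This length joins the exons of all annotated transcripts of a gene. A gene whose main transcript is shorter is placed too low, and the transcripts in use were not determined. In the HFD mice the mean log2 CPM per kilobase was highest for Apoe at 10.82, then Pltp at 9.17 and Npc2 at 8.69. The other 6 genes lay close together at 5.64 (Scarb1), 5.55 (Abca1), 5.38 (Apoc1), 5.36 (Abcg1), 5.04 (Npc1) and 4.84 (Soat1). Among the neighbours in that order, the ranges over the mice overlapped for Scarb1 and Abca1, Abca1 and Apoc1, Apoc1 and Abcg1, and Npc1 and Soat1. Within a mouse, the first gene of these pairs was above the second in 4, 3, 2 and 5 of the 5 HFD mice. In the IMC-treated mice the order began the same way, with Apoe at 10.44, Pltp at 8.92 and Npc2 at 8.88, the last pair now overlapping. Apoc1 came next at 6.77, clear of its neighbours, above Abca1 (5.71), Scarb1 (5.66), Abcg1 (5.07), Npc1 (4.78) and Soat1 (4.34). Below Apoc1, the ranges over the treated mice overlapped for Abca1 and Scarb1, Abcg1 and Npc1, and Npc1 and Soat1. Within a mouse, the first gene of these pairs was above the second in 4, 6 and 6 of the 6 treated mice.

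For each gene that passed the test, the 2 listed genes with the most similar pattern over the 11 mice were sought, by the root mean square distance between values centred on each gene's mean. The nearest to Soat1 was Lipa, the lysosomal acid lipase gene, at 0.0429 log2 units, followed by Kcnab2 at 0.0489. Npc1 was nearest to Msn (0.0333), which encodes the cytoskeletal linker moesin, and to Ggta1 (0.0604). The closest genes to Abca1 were Eya2 (0.0504) and Crebrf (0.0584), and to Abcg1 they were Tyk2 (0.0645) and Slc38a7 (0.0651). Apoe was nearest to Twf2 (0.0757) and Taf7 (0.0770), and Pltp to Fen1 (0.0438) and Nusap1 (0.0590). Apoc1 was nearest to Mylk (0.159) and Slc16a12 (0.160). A distance grows with the spread of the gene itself. Divided by the root mean square spread of the gene about its own mean, the distance to the nearest gene was 0.139 for Soat1, 0.160 for Npc1, 0.205 for Apoc1, 0.262 for Pltp, 0.321 for Abcg1, 0.348 for Apoe and 0.441 for Abca1. These distances hold both the difference between the groups and the spread within them.

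Around the 9 genes, 7 lists of the same pathway held 111 genes, of which 96 were listed, 30 were higher (31.2%, against 20% of all listed genes) and 16 lower (16.7%, against 21.0%). Together 47.9% were called, near the 40.9% of all listed genes, and the median difference was 0.03, against -0.03. The counts of the single lists below are small and are given as descriptions. The median was 0.16 for oxysterol receptors and partners, 0.15 for other LXR targets, -0.14 for other ABC transporters, 0.11 for other apolipoproteins and lipoprotein remodelling, -0.01 for receptors and for trafficking and storage, and -0.21 for oxysterol and cholesterol ester metabolism. Of the 8 genes for oxysterol receptors and their partners, 5 were higher and 2 lower. The higher count was 3 with total-read scaling or without HFD mouse 1, HFD mouse 3 or IMC mouse 3, and the lower count was 1 without any of HFD mice 1, 2 and 3 or IMC mice 1, 2, 4 and 5. Nr1h3, encoding LXR alpha, rose by 0.16 (SE 0.06, adjusted p = 0.0340), and Nr1h2, encoding LXR beta, fell by 0.19 (SE 0.05, adjusted p = 0.0160). Rxra and Rxrg, which encode retinoid X receptors, rose by 0.35 (SE 0.06) and 0.88 (SE 0.13), and the coactivator gene Ncoa1 by 0.26 (SE 0.04). Rxrb, which also encodes a retinoid X receptor, was named after its values were seen and fell by 0.13 (SE 0.04, adjusted p = 0.0280).

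Among 12 other LXR target genes, 9 were listed, 4 were higher and 1 lower, and the higher ones serve fatty acid or phospholipid synthesis. Scd1, a fatty acid desaturase gene, rose by 1.31 (SE 0.20), and Srebf1, which encodes a transcription factor of lipid synthesis, by 0.79 (SE 0.10). Lpcat3, which remodels phospholipids, rose by 0.21 (SE 0.04), whereas Mylip, which encodes a ubiquitin ligase, differed by 0.08 (adjusted p = 0.467). Abcg5, Abcg8 and Nr0b2 were not listed. Of 15 other ABC transporters of lipids, all listed, 2 were higher (1 without HFD mouse 3 or with total-read scaling) and 3 lower. Abcb4, the phosphatidylcholine transporter, fell by 0.66 (SE 0.12), Abca7 by 0.28 (SE 0.08), and Abca3 rose by 0.21 (SE 0.04). Abca8a (-0.10, adjusted p = 0.480) and Abca9 (-0.27, adjusted p = 0.111), which have close copies beside them, did not pass the test.

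In the list of other apolipoproteins and lipoprotein remodelling, 20 of 26 genes were listed, 6 were higher and 1 lower. Mttp, needed to load lipid on to apolipoprotein B, rose by 0.56 (SE 0.14), Angptl4, an inhibitor of lipoprotein lipase, by 0.33 (SE 0.06), and Apol6 by 0.81 (SE 0.12). Apoc4, which lies in the same gene cluster as Apoc1, differed by 0.17 (adjusted p = 0.294), and Apoc2, Apod, Apom, Apol7c and Lipc were among the genes not listed. Among lipoprotein and scavenger receptors, 13 of 17 were listed, 5 were higher and 4 lower. Vldlr, the VLDL receptor gene, rose by 0.93 (SE 0.10), Sort1 (sortilin) by 0.59 (SE 0.05) and Lrpap1, a chaperone of this receptor family, by 0.35 (SE 0.04). Lrp1 (-0.17, adjusted p = 0.319) did not pass the test.

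Intracellular trafficking and storage of sterol had 21 of 22 genes listed, with 5 higher and 4 lower. Lipa and Nceh1, whose products free cholesterol from its esters, fell as did Soat1, which makes them. Lipa, the lysosomal acid lipase gene, went from 10.31 ± 0.17 (SD, n = 5) to 9.80 ± 0.24 (SD, n = 6), and Nceh1, a neutral cholesterol ester hydrolase gene, fell by 0.50 (SE 0.10, limma adjusted p = 0.0018). Lipe, the adipocyte marker that encodes hormone-sensitive lipase and also acts on cholesterol esters, was named after its values were seen and rose by 0.90 (SE 0.12). Scp2, a sterol carrier gene, rose by 0.57 (SE 0.06), Anxa6 by 0.61 (SE 0.07) and Tmem135 by 0.48 (SE 0.07). In oxysterol and cholesterol ester metabolism 11 of 12 were listed, 3 were higher and 1 lower (2 without HFD mouse 1, HFD mouse 3 or IMC mouse 3, or with total-read scaling). Ces1d and Ces1f, near copies whose reads may have been split between them, rose by 1.02 (SE 0.18) and 0.94 (SE 0.21), Lss, a gene of cholesterol synthesis, by 0.30 (SE 0.07), and Cyp27a1, which makes an LXR ligand, differed by -0.22 (adjusted p = 0.0612).

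**Figure D4:**
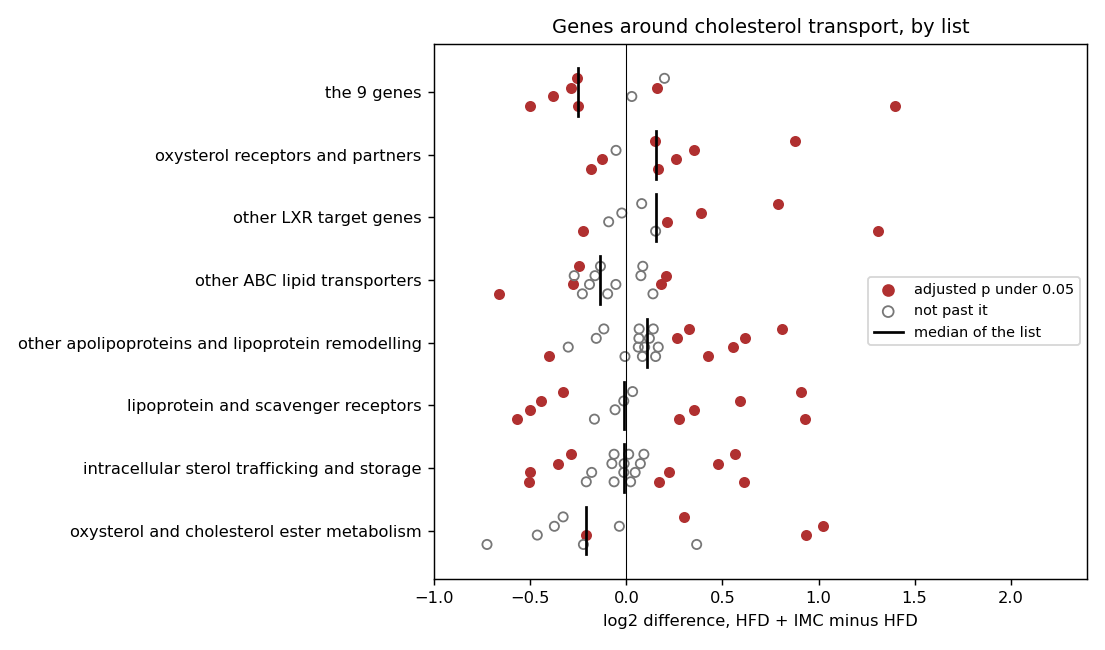
Difference in log2 CPM, HFD + IMC minus HFD (horizontal axis), of each listed gene in the 9 genes and the 7 pathway lists (rows), with called and uncalled genes in different colours and the median of each list marked. The lists spread to both sides of 0, and Apoc1 at 1.40 is the farthest point of the 9.

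Markers of cell types moved with the groups. All 10 adipocyte markers were higher in the IMC-treated mice, and their summed level was 9800 to 14008 CPM in HFD mice and 19395 to 23795 CPM in treated mice. Of 14 macrophage markers, 11 were lower and none higher, with sums of 10559 to 13242 CPM against 6285 to 9075 CPM, and Mrc1, Mertk and Cd163 were not called. Of 12 markers of lipid-associated macrophages 11 were listed (not Spp1) and 9 were lower, with sums of 31626 to 40796 CPM against 25380 to 30719 CPM. Fabp5 and Lpl were not called. Lpl is among the highest genes in this sum, with means of 13.29 (HFD) and 13.45 log2 CPM (HFD + IMC). It was higher in all 6 treated mice than in any HFD mouse. Its difference was 0.15, with SDs of 0.03 (HFD) and 0.08 (HFD + IMC). Limma with its variance trend gave it an SE of 0.12 (adjusted p = 0.315), larger than either SD. All 6 mast cell markers were lower (502 to 1149 CPM against 160 to 323 CPM), as were 4 of 8 progenitor and fibroblast markers and 1 of 4 listed mesothelial markers (Msln and Krt8 were not listed). Of 8 endothelial markers 1 was higher, and of 8 hepatocyte markers, which include liver apolipoproteins, 2 were higher, with sums of 120 to 131 CPM against 118 to 163 CPM. Of 8 striated muscle markers 3 were listed and 2 were higher, and their sums were low (14.9 to 19.5 CPM against 32.1 to 57.7 CPM). Of 8 genes of early stress response 7 were listed (not Fosb), and all 7 were lower, with sums of 575 to 764 CPM against 347 to 488 CPM. In the IMC-treated mice, Apoc1 and Abca1 were thus higher beside higher adipocyte and striated muscle markers. Apoe, Abcg1, Pltp, Npc1 and Soat1 were lower beside lower macrophage, mast cell and early stress genes. The part of these markers in the differences was not tested.

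The order of the mice within each group was also compared with the macrophage sum. The 3 IMC-treated mice with the lowest sum (mice 6, 2 and 1) were the 3 with the lowest Abcg1, Npc1 and Soat1, and HFD mice 2, 5 and 4 were likewise the 3 lowest of their group in the sum and in these genes. The order inside the HFD set differed, since mouse 2 had the lowest sum (10559 CPM) and the highest Abcg1, Npc1 and Soat1 of these 3. HFD mice 4 and 3, which fall on either side of that set, had nearly equal sums (12185 and 12269 CPM). For Apoe and Npc2 the lists of lowest mice shared 2 of 3 mice in each group, for Abca1, Pltp and Scarb1 1 or 2, and for Apoc1 1 in the HFD group and 0 in the treated group. Of 5 mice, 2 choices of 3 share at least 1. In the adipocyte sum, IMC mice 6, 2 and 1 (21777 to 23795 CPM) and HFD mice 2, 5 and 4 (11343 to 14008 CPM) were the 3 highest. The same mice were also the 3 lowest of their group in the lipid-associated macrophage sum. The match is therefore not particular to the macrophage markers, and the share of all listed genes with this order was not counted. The pattern was seen in the values and is given without a test.

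**Figure D5:**
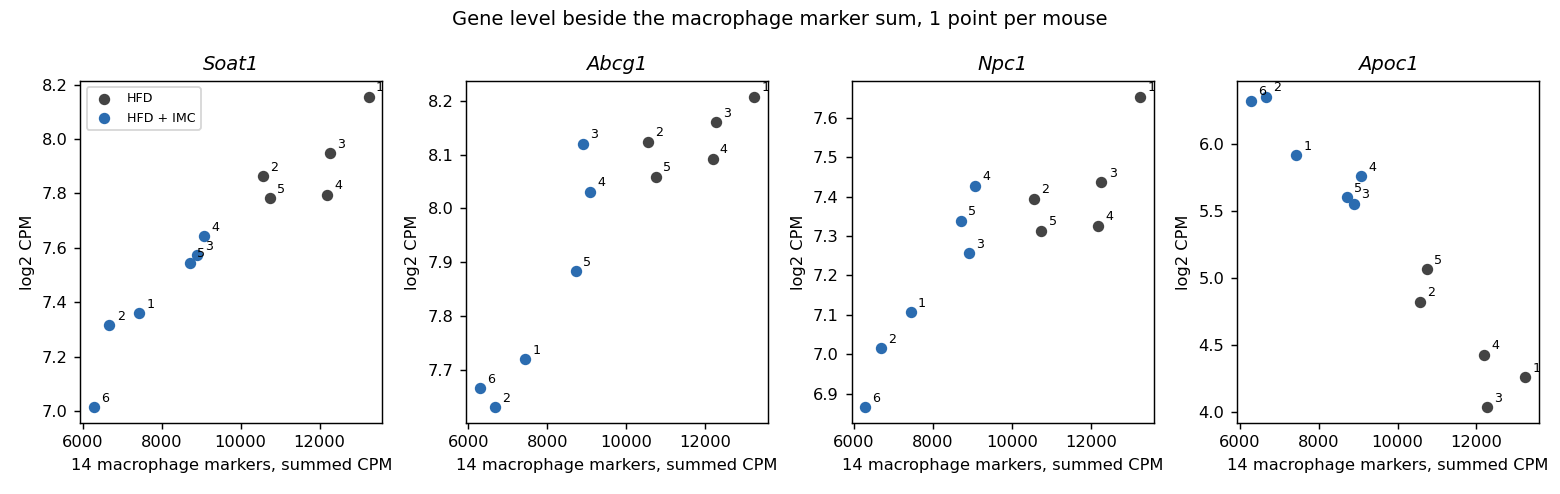
Level of Soat1, Abcg1, Npc1 and Apoc1 in log2 CPM (vertical axes) against the summed CPM of 14 macrophage markers (horizontal axis) in each mouse, coloured by group. The treated mice lie at 6285 to 9075 CPM and the HFD mice at 10559 to 13242 CPM, with no overlap between the groups on the horizontal axis.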

How the data were processed

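Total RNA of gonadal WAT was taken with a lipid tissue kit and sequenced from directional mRNA libraries. Per the study's methods, the authors trimmed reads with Trim Galore, checked them with FastQC, mapped them on mm10 and UCSC transcripts by STAR, counted reads per gene, removed genes under 1 CPM in all mice, and scaled by the upper quartile with edgeR. The authors deposited log2 CPM for 12787 genes in 11 mice. Their own fold changes, test statistics and p-values stand in the same table and were not used, and 0 columns belonged to other samples.

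Groups came from the treatment labels, and mice are numbered in deposition order, which pairs none of them. The log2 CPM were fitted with limma 3.58.1 in R 4.3.3 (lmFit, eBayes with trend) with group as the only factor, and p-values were adjusted by Benjamini-Hochberg over 12787 genes. Single genes and ratios were also tested by two-sided exact permutation over all splits of the mice. The exact p of a single gene was held to 0.05 without adjustment over the 12787 genes, unlike the limma p. CPM steps gave whole reads for 100% of values within 0.05 reads, with a mean added constant of 0.25 reads. On simulated data of 12787 genes with 200 changed, 98% of genes changed by 1 on the log2 scale and 63% of those changed by 0.5 were called. Of the simulated calls, 5.85% were false. Far more genes, 5236, were called in the data themselves, so these shares do not give the power of the calls reported here. Alternatives were no variance trend, robust limma, median centring, total-read scaling, a constant of 2 reads, voom, a minimum mean of 3 log2 CPM, the exact test, and leaving out each mouse.

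Genes named are the 9, the 3 with the smallest p among those called in each pathway list, 15 further pathway genes fixed by name (some are not reported here), and the 2 nearest in pattern to each called gene. The 9 genes and all lists were chosen with earlier results of these data known. Coordinates and promoters are from RefSeq GRCm38.p6, and exonic lengths from GENCODE M21.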

Additional observations from a re-analysis of the deposited data

Results flagged for a closer look

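In the HFD group, Abca1 in mouse 4 stood apart at 9.07 log2 CPM, with the next HFD mouse at 8.89. This gap was 0.822 of the range of the group, above the 0.71 that Dixon's test allows for 5 samples. The log2 ratio of Npc1 to Npc2 in HFD mouse 1 stood apart in the same way, at -2.65 against -3.02 in the next mouse, a gap of 0.803 of the range. Without that mouse the difference between the groups in this ratio was -0.37 (exact permutation p = 0.00952). In all, 24 groups of values were checked, and chance marks about 1 in 20.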

How the results depend on the processing

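Apoe, Apoc1, Abcg1 and Soat1 kept their direction and their call under all 19 alternatives, with differences over the fits leaving out 1 mouse of -0.43 to -0.34, 1.27 to 1.53, -0.34 to -0.24 and -0.55 to -0.42. Abca1 no longer passed by limma with no variance trend (0.16, adjusted p = 0.0558), robust limma (0.16, 0.0534), median centring (0.15, 0.0584), total-read scaling (0.13, 0.113) and voom (0.16, 0.0508), and ranged from 0.13 to 0.20 with 1 mouse left out. In these 5 settings 1 gene of the 9 was higher instead of 2. Npc1 no longer passed with no variance trend (-0.26, adjusted p = 0.0676) and median centring (-0.26, 0.0574), and ranged from -0.31 to -0.20. Its exact permutation test, of this gene alone and unadjusted, did not pass either (-0.26, p = 0.0519). By the exact permutation test, whose p is of 1 gene and not adjusted over all genes, Npc2 was under 0.05 (0.20, p = 0.0411). Its limma p before adjustment was 0.0281, and its difference ranged from 0.17 to 0.23. Scarb1 turned to -0.0040 with total-read scaling (adjusted p = 0.954), and ranged from 0.00087 to 0.061. Pltp ranged from -0.30 to -0.22. With 1 mouse left out, 1 to 2 of the 9 genes were higher and 3 to 5 lower, the lowest without HFD mouse 4. The ratios kept their calls, at 1.67 to 1.92 (Apoc1 to Apoe), 0.41 to 0.51 (Abca1 to Abcg1) and -0.51 to -0.37 (Npc1 to Npc2). Total-read scaling moved the median of all genes from -0.03 to -0.06 and called 2202 higher and 3261 lower, 40.3% of calls higher against 48.8%. Over the 7 pathway lists, 24 to 30 genes were higher and 14 to 17 lower with 1 mouse left out. The cause of these changes was not tested. No paired analysis was possible because the labels give no numbers shared between the groups. Apoc1, at 391 reads in its lowest library, is the gene whose values depth limits most among the 9.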

Other observations

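Scavenger receptors of the pathway lists, chosen here after their values were seen, split in direction. Msr1, the class A scavenger receptor of macrophages, fell by 0.57 (SE 0.13), and Stab1 by 0.44 (SE 0.12), whereas Olr1, the receptor for oxidised LDL, rose by 0.91 (SE 0.15, limma adjusted p = 0.00043). Cd36, the fatty acid and oxidised LDL receptor shared by adipocytes and macrophages, differed by 0.03 (adjusted p = 0.825). Stard3 and Stard3nl, which encode proteins of the late endosome membrane where NPC1 also lies, fell by 0.29 (SE 0.05) and 0.36 (SE 0.06).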
